A study of Cricetiscus sungorus with 12 samples.

Results

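The effect of short against long photoperiod on the hypothalamus was examined in Djungarian hamsters at normal body temperature. The comparison takes the 4 hamsters labelled SP-NT (short photoperiod, normothermic) against the 4 labelled LP-NT (long photoperiod, normothermic), chosen by their labels alone, so 8 of the 12 hamsters of the series. Each library is hypothalamic poly(A) RNA of 1 adult hamster. LP-NT hamsters lived in LD 16:8 and SP-NT hamsters in LD 8:16, all were sampled at about ZT 4, and each group held 2 males and 2 females as labelled. The 4 remaining hamsters, SP-HT, lived in the same short days and were sampled in torpor. They are quoted only where their values stand beside those of the other groups. SP-NT hamsters carried implanted temperature transmitters and had each passed through at least 1 torpor bout, whereas LP-NT hamsters were not implanted. Surgery, earlier torpor and photoperiod can therefore not be told apart.

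Day length reaches the hypothalamus as the nightly duration of melatonin secretion, which is read in the pars tuberalis of the pituitary stalk. There it sets the output of thyrotropin, a dimer of a common alpha subunit and a specific beta subunit. Thyrotropin acts on tanycytes, the glia lining the ventricle below the thalamus, whose deiodinases switch local thyroid hormone on or off and through it reproduction, body mass, fur and the readiness for torpor.

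The expected counts, which are read numbers estimated by the deposited quantification and need not be whole, summed to 22387368, 22710560, 21732663 and 21791035 in LP-NT 01, 02, 03 and 05, and to 23886861, 23996023, 22860110 and 24186918 in SP-NT 19, 36, 37 and 38. Every SP-NT library was larger than every LP-NT library, with a ratio of the means of 1.07 (exact permutation test over 70 splits, p = 0.0286, the smallest these groups allow). With any 1 LP-NT library left out the groups still did not overlap, and the exact permutation p, over fewer splits, was 0.0571. Values below are normalized for this difference and given as counts scaled to 1e6 per library (CPM), in which 1 count lay between 0.0403 and 0.0457 CPM in these 8 libraries.

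One library of each group stood apart. In LP-NT 01, 265 of 12904 records with a mean of at least 50 counts lay beyond 2-fold of the median of its group mates, 2.05% against 0.372% to 0.860% in the 7 other normothermic libraries. Only this library held records more than 10 times above every other one, with at least 30 counts. There were 2 of them, with 37 and 68 counts against at most 2 elsewhere, and both belong to the Reactome pathways of growth hormone and prolactin receptor signaling. SP-NT 19 is labelled male, but 2 records with 979 to 1699 and 342 to 462 counts in the 6 other hamsters labelled male had 0 counts in it, like those labelled female (2 to 5 and 0 counts). The results are therefore also given without these libraries. The part of pituitary tissue or of a mistaken label in any result was not tested.

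Each record of the deposited data joins the transcripts whose best protein match is 1 mouse gene, and carries that gene's identifier (GeneID) but no name. A name was attached to 66 records through the values printed by the study, so that the size of a difference is no independent evidence that the name is right. Of these records 51 belong to at least 1 Reactome pathway, a set of reactions with its member genes. The record named Cga is listed among the glycoprotein hormones, Lrat under retinoid metabolism and Dio3 under the regulation of thyroid hormone activity, which the match did not use. Npvf and Tshb were told apart only by the order in which they are printed. Transcripts of hypothalamic neurons were present, with a mean in LP-NT of 656 TPM (transcripts per 1e6, a level per transcript length) for the vasopressin precursor Avp, 207 TPM for somatostatin, Sst, and 82.3 TPM for thyrotropin-releasing hormone, Trh. Marker lists of neighbouring tissues could not be read as a whole, as too few records carry a name. Of the markers listed for pituitary cells, Pomc and Trhr carry one. Trhr had 16.6, 11.5, 11.7 and 19.6 CPM in LP-NT and 16.0, 19.2, 15.2 and 15.0 CPM in SP-NT, which overlapped, and Pomc is given below.

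Across the transcriptome the photoperiods were close. Of 16199 records with a sum of at least 10 counts, 7972 were higher and 8227 lower in SP-NT, with a median log2(FC) of -0.00243 and 9 records in 10 between -0.32 and 0.43. A log2(FC) beyond 1 in size was found in 246 records, but 190 of these had a mean under 10 counts. Among the 12959 records with a mean of at least 50 counts there were 15. By the quasi-likelihood test of edgeR with Benjamini-Hochberg adjustment, 6 records (0.0370%) passed the threshold of 0.05, with 5 lower and 1 higher in SP-NT, and 784 records (4.84%) had an unadjusted p under 0.05. DESeq2 with its default settings passed 33 of 15561 records with an adjusted p (0.212%), 18 higher and 15 lower, among them the 6 of edgeR.

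Another view asks only whether the 4 values of each group overlap. In 557 records (3.44%) they did not, with 278 higher (1.72%) and 279 lower (1.72%) in SP-NT. On the deposited TPM, a scale chosen after seeing the data, the groups were apart in 558 records with 344 higher and 214 lower, so the balance of directions depended on the scale while the total did not. Without LP-NT 01 the edgeR test passed 8 records, without SP-NT 19 it passed 6 and without both 7, and the 6 records above were among those passed each time. The groups were apart in 945, 1003 and 1502 records in these smaller sets, in which fewer libraries have to be separated. Here and below, counts of records apart and their shares are taken over the records tested with all 8 libraries.

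**Figure D1:**
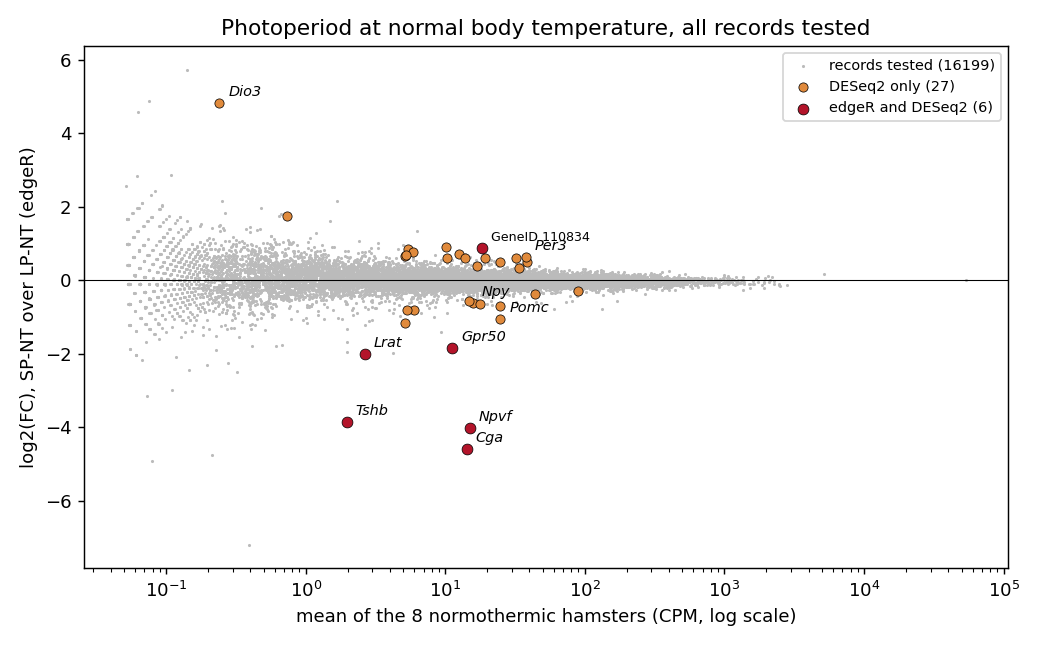
Each point is 1 of 16199 records, with its mean over the 8 normothermic hamsters (CPM, log scale) against its log2(FC) of SP-NT over LP-NT. Red points passed edgeR and DESeq2 (6), orange points DESeq2 only (27), and the 5 named red points lie between -1.84 and -4.58 while most records lie near 0.

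Transcripts of both thyrotropin subunits fell in short days. The common alpha subunit, Cga, had 45.5, 20.9, 16.2 and 26.7 CPM in LP-NT 01, 02, 03 and 05, and 1.07, 0.916, 0.734 and 1.82 CPM in SP-NT 19, 36, 37 and 38. Its log2(FC) was -4.58 (SE 0.380, adjusted p = 0.00111 by the quasi-likelihood test of edgeR with Benjamini-Hochberg adjustment), 23.9-fold lower, with no overlap. The highest value was that of LP-NT 01, the library with the 2 records of the growth hormone pathway, and without it Cga still fell by 4.22 on the log2 scale (Benjamini-Hochberg adjusted p = 0.000209 from the edgeR quasi-likelihood test).

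The beta subunit, Tshb, which makes the hormone thyrotropin, was less abundant, with a mean of 23.1 TPM in LP-NT beside 119 TPM for Cga. It had 113, 97, 36 and 82 counts in the LP-NT libraries and 9, 4, 4 and 7 counts in the SP-NT libraries, or 5.11, 4.21, 1.64 and 3.74 and 0.370, 0.167, 0.173 and 0.282 CPM. The log2(FC) was -3.86 (SE 0.409, Benjamini-Hochberg adjusted p = 0.00576 from the edgeR quasi-likelihood test). Every LP-NT hamster was above every SP-NT hamster, LP-NT 03 being the lowest of its group for both subunits. Without SP-NT 36 the adjusted p was 0.0516 in the same edgeR test at a log2(FC) of -3.71, and in limma, the 1 of 10 other settings that did not pass it, the adjusted p was 0.0751. In bulk tissue, fewer cells of a type and less RNA per cell cannot be told apart, and the amount of pituitary stalk left on each hypothalamus enters in the same way.

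The tanycyte genes Gpr50 and Lrat fell as well. Gpr50, a relative of the melatonin receptors that binds no melatonin, had 17.6, 17.8, 16.3 and 18.2 CPM in LP-NT and 5.50, 4.70, 4.92 and 4.48 CPM in SP-NT. Within each group its values were close together and the gap between the groups was wide, which gave it the smallest p of all records (log2(FC) -1.84, SE 0.0978, adjusted p = 4.21e-05 by the quasi-likelihood test of edgeR with Benjamini-Hochberg adjustment). Lrat, the enzyme that esterifies retinol for storage, had 4.30, 4.38, 3.37 and 4.98 CPM in LP-NT and 1.19, 1.08, 1.12 and 0.847 CPM in SP-NT (log2(FC) -2.002, SE 0.185, Benjamini-Hochberg adjusted p = 0.00239 from the edgeR quasi-likelihood test). The groups lay far apart for this gene too, and neither gene depended on a single hamster, since the log2(FC) stayed between -1.90 and -1.79 for Gpr50 and between -2.097 and -1.91 for Lrat with each library left out. Vim, an intermediate filament of tanycytes and other glia, had 94.8, 124, 108 and 123.4 CPM in LP-NT and 99.5, 95.1, 56.1 and 109 CPM in SP-NT (log2(FC) -0.32, Benjamini-Hochberg adjusted p = 0.913 from the edgeR quasi-likelihood test), and its groups overlapped, LP-NT 01 lying below 3 of the 4 SP-NT hamsters.

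The deiodinases of tanycytes lay on opposite sides of 0 without passing the edgeR test. Dio3, which inactivates thyroid hormone, had 1 count in LP-NT 01 and 0 in the other LP-NT hamsters, against 4, 11, 14 and 16 counts in the SP-NT hamsters. Per total count the ratio was 42.0, with an exact 95% interval from 7.17 to 1696 that covers counting error only. The groups did not overlap, yet the counts were few, and the Benjamini-Hochberg adjusted p was 0.1796 from the edgeR quasi-likelihood test, 0.0193 from DESeq2 (between 0.0193 and 0.335 over 9 other settings). Dio2, which makes the active hormone, had 7.24, 7.77, 8.29 and 5.30 CPM in LP-NT and 4.76, 5.24, 6.17 and 5.93 CPM in SP-NT (log2(FC) -0.37, Benjamini-Hochberg adjusted p = 0.913 from the edgeR quasi-likelihood test), where LP-NT 05 lay among the SP-NT values.

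Npvf, the precursor of the RFamide peptides of dorsomedial neurons that act on gonadotropin release, was in long days the most abundant of the 5 named lower genes after Cga, with a mean of 76.8 TPM. It had 28.7, 29.9, 25.0 and 29.1 CPM in LP-NT and 0.862, 3.58, 1.38 and 1.13 CPM in SP-NT, a log2(FC) of -4.02 (SE 0.332, adjusted p = 0.00111 by the quasi-likelihood test of edgeR with Benjamini-Hochberg adjustment). LP-NT values were nearly alike, and SP-NT 36 stood above the 3 other SP-NT hamsters while remaining far below long days. Without SP-NT 36 the gene was lower still, with a log2(FC) of -4.65 (Benjamini-Hochberg adjusted p = 4.22e-06 from the edgeR quasi-likelihood test).

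**Figure D2:**
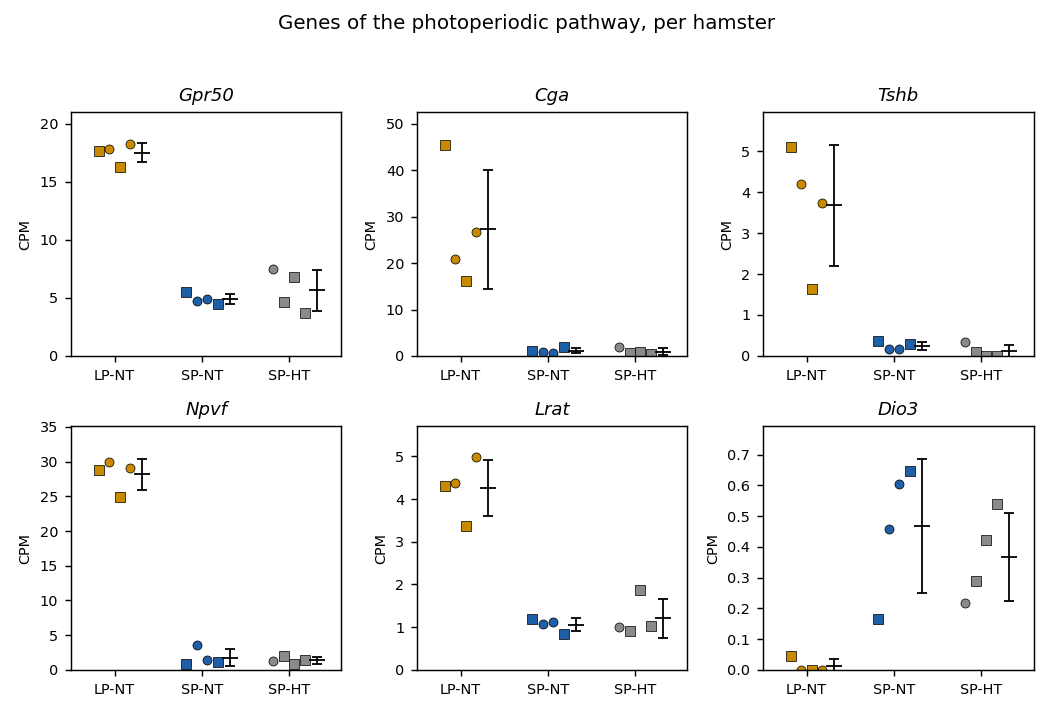
CPM of 6 genes in each hamster of LP-NT, SP-NT and SP-HT, with circles for females and squares for males as labelled, and bars for the mean and SD of 4 hamsters. The LP-NT and SP-NT values are apart in every panel, with 5 genes lower and Dio3 higher in SP-NT.

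The same genes in the other short-day hamsters, those in torpor, are set beside these values. SP-HT 02, 10, 26 and 33 had 7.44, 4.63, 6.81 and 3.73 CPM of Gpr50, 1.23, 1.98, 0.846 and 1.42 CPM of Npvf and 1.93, 0.675, 0.846 and 0.343 CPM of Cga. For Lrat they had 1.01, 0.916, 1.88 and 1.03 CPM, and for Dio3 5, 6, 9 and 11 counts. For Tshb they had 8, 2, 0 and 0 counts, so few that the size of its log2(FC) below is uncertain. None of these values reached into the range of LP-NT. Against LP-NT, the edgeR quasi-likelihood test with Benjamini-Hochberg adjustment passed 221 of 16157 records (1.37%), with 57 higher and 164 lower. It gave a log2(FC) of -1.62 for Gpr50 (adjusted p = 0.00768), -4.36 for Npvf (adjusted p = 2.60e-06), -4.81 for Cga (adjusted p = 0.00124), -4.91 for Tshb (adjusted p = 0.00919) and -1.81 for Lrat (adjusted p = 0.0102). Dio3 passed as well (adjusted p = 0.0263), with 31 counts in SP-HT against 1 in LP-NT. Both comparisons use the same 4 LP-NT hamsters and are not independent, and SP-HT differs from LP-NT by torpor besides photoperiod and in the sexes as labelled (3 males and 1 female against 2 and 2). The count fell to 200 records without LP-NT 01 and to between 55 and 87 without any 1 of the 7 other libraries.

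The only record that rose in edgeR carries GeneID 110834 and no name. It is a member of the Reactome pathway of nicotinic acetylcholine receptors, and had 11.99, 13.1, 11.5 and 14.6 CPM in LP-NT and 22.1, 24.2, 24.2 and 24.4 CPM in SP-NT. The groups were clearly apart (log2(FC) 0.89, SE 0.0923, adjusted p = 0.00576 by the quasi-likelihood test of edgeR with Benjamini-Hochberg adjustment), and the record passed in all 10 other settings and with each library left out. The unnamed record next to it among the higher ones, GeneID 381062, had 28.8, 24.8, 24.9 and 23.3 CPM and 41.6, 37.8, 34.1 and 42.4 CPM (log2(FC) 0.61, Benjamini-Hochberg adjusted p = 0.106 from the edgeR quasi-likelihood test). Its groups did not overlap, but its test depended on the setting. With 1 library left out the edgeR quasi-likelihood test gave a Benjamini-Hochberg adjusted p between 0.0292 and 0.502, and over 10 other settings it lay between 4.23e-06 and 0.991, with a log2(FC) of 0.38 where the deposited effective lengths entered.

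Among lower unnamed records, GeneID 18667, a member of the nuclear receptor transcription pathway, had 31.4, 25.9, 29.7 and 34.5 CPM in LP-NT and 17.8, 21.0, 17.6 and 18.8 CPM in SP-NT (log2(FC) -0.69, Benjamini-Hochberg adjusted p = 0.0862 from the edgeR quasi-likelihood test). GeneID 16542, which Reactome lists under the binding of VEGF to its receptors, had 19.7, 22.7, 24.6 and 19.7 and 15.7, 14.8, 12.8 and 12.4 CPM (log2(FC) -0.64, Benjamini-Hochberg adjusted p = 0.1796 from the edgeR quasi-likelihood test). For both, every SP-NT hamster was below every LP-NT hamster. With 1 library left out, the Benjamini-Hochberg adjusted p from the edgeR quasi-likelihood test lay between 0.0387 and 0.359 for the former and between 0.151 and 0.747 for the latter. Over 10 other settings the Benjamini-Hochberg adjusted p lay between 1.51e-06 and 0.273 for the former, which passed in 3 of them, and between 0.000298 and 0.335 for the latter, which passed in 2, DESeq2 giving the lowest values.

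In all, 24 of the 33 records passed by DESeq2 have no name, 16 higher and 8 lower, with a median size of the log2(FC) of 0.65. The groups were apart in each of the 24. Reactome holds 11 of them, in places as different as olfactory signaling, calcium extrusion, phosphatidic acid synthesis, DNA replication, collagen and the hydrolysis of triacylglycerol. A second member of the nicotinic receptor pathway was among the higher ones.

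The study preselected 68 indicator genes for transcription, the clock, the thyroid axis, growth and metabolism, of which 60 carry a name here. As the study chose this list, it is not independent evidence for a direction. Of the 60, 27 were higher and 33 lower in SP-NT, with a median log2(FC) of -0.0229. Groups did not overlap for 11 (18.3%, beside 3.44% over all records), 3 higher and 8 lower. The test passed 1 in edgeR and 5 in DESeq2, beside 0.0370% and 0.212% over all records. Without LP-NT 01 the groups of 13 were apart and without SP-NT 19 those of 12, beside 5.83% and 6.19% over all records in these smaller sets.

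**Figure D3:**
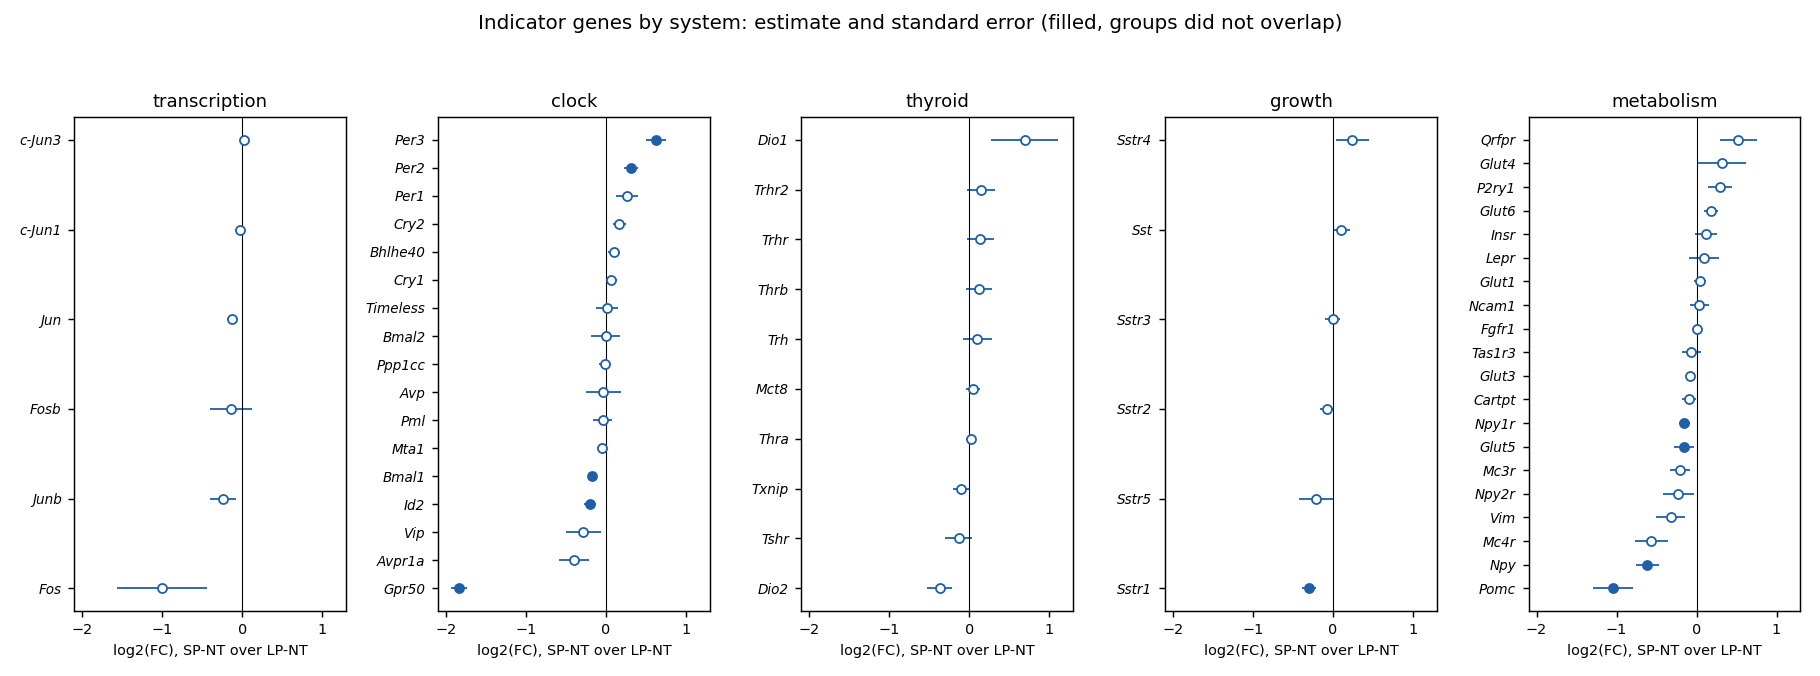
Log2(FC) of SP-NT over LP-NT with its standard error (edgeR) for the named indicator genes of 5 systems, without Dio3, which had 1 count in LP-NT. Filled points mark genes whose groups did not overlap, among them Per3 and Per2 to the right and Gpr50, Pomc and Npy to the left of 0.

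Of the genes of the clock loop, none passed the edgeR test. Period genes repress the transcription driven by Bmal1 and its partner. Per3 had 25.3, 28.9, 27.4 and 37.4 CPM in LP-NT and 41.8, 41.0, 50.0 and 50.8 CPM in SP-NT, and Per2 had 39.0, 40.5, 36.3 and 37.0 and 45.1, 41.5, 50.5 and 53.1 CPM. All SP-NT values were above all LP-NT values for both, narrowly so for Per2. The log2(FC) was 0.62 for Per3 (Benjamini-Hochberg adjusted p = 0.437 from the edgeR quasi-likelihood test, 0.00389 from DESeq2, between 0.000125 and 0.483 over 10 other settings) and 0.31 for Per2 (Benjamini-Hochberg adjusted p = 0.902 from the edgeR quasi-likelihood test).

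Bmal1, the activator, lay on the other side, with 88.0, 85.4, 85.5 and 88.7 CPM in LP-NT and 76.7, 74.6, 78.7 and 77.5 CPM in SP-NT (log2(FC) -0.18, Benjamini-Hochberg adjusted p = 0.902 from the edgeR quasi-likelihood test). Id2, an inhibitor of helix-loop-helix factors, had 16.9, 18.4, 17.6 and 17.6 and 15.4, 16.0, 16.1 and 14.1 CPM (log2(FC) -0.19, Benjamini-Hochberg adjusted p = 0.913 from the edgeR quasi-likelihood test). Both groups were tight and did not overlap for either gene. Together with Gpr50, which the study counts among the clock genes, these were the 5 of 17 named clock genes whose groups were apart (29.4%, beside 3.44% over all records). Groups of the 12 others overlapped. Light began at the same ZT 0 but lasted for different times, and 1 time of day cannot separate the level of a rhythm from its phase.

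Among named genes of metabolism, the groups of 4 of 20 were apart (20%, beside 3.44% over all records), each lower in SP-NT. Pomc, the precursor of the satiety peptide alpha-MSH in arcuate neurons, had 52.4, 30.3, 24.8 and 25.9 CPM in LP-NT and 20.3, 16.2, 11.4 and 16.7 CPM in SP-NT (log2(FC) -1.05, Benjamini-Hochberg adjusted p = 0.643 from the edgeR quasi-likelihood test, 0.0122 from DESeq2, between 0.0122 and 0.764 over 10 other settings). LP-NT 01, the library with the 2 records of the growth hormone pathway, was far above its group, and without it the log2(FC) was -0.74. Pomc also stands on the list of pituitary markers drawn up here, and the part of pituitary tissue in its difference was not tested. The appetite-stimulating peptide Npy had 20.1, 20.9, 16.6 and 18.8 and 11.3, 11.9, 10.2 and 16.3 CPM, with SP-NT 38 just under LP-NT 03 (log2(FC) -0.62, Benjamini-Hochberg adjusted p = 0.643 from the edgeR quasi-likelihood test, 0.0360 from DESeq2, between 0.0360 and 0.776 over 10 other settings). In the short-day hamsters in torpor, Npy was at 16.6, 14.2, 18.7 and 22.7 CPM and overlapped LP-NT. Pomc was at 12.9, 13.1, 12.2 and 10.6 CPM in them, below every LP-NT hamster (log2(FC) -1.44 against LP-NT, Benjamini-Hochberg adjusted p = 0.0128 from the edgeR quasi-likelihood test).

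Receptors of these peptides showed smaller differences. Npy1r, a receptor of Npy, had 18.8, 18.1, 17.6 and 19.6 CPM in LP-NT and 17.1, 16.7, 16.5 and 16.3 CPM in SP-NT (log2(FC) -0.15, Benjamini-Hochberg adjusted p = 0.913 from the edgeR quasi-likelihood test). Mc4r, the receptor on which alpha-MSH acts in feeding, had 3.94, 2.65, 2.41 and 3.20 and 1.93, 2.12, 2.55 and 1.65 CPM (log2(FC) -0.56, Benjamini-Hochberg adjusted p = 0.913 from the edgeR quasi-likelihood test). The groups did not overlap for Npy1r and overlapped for Mc4r through SP-NT 37. The fructose transporter Glut5 was the remaining gene of the 4, at 3.94, 3.82, 3.73 and 3.84 and 3.65, 3.54, 3.63 and 2.95 CPM (log2(FC) -0.16, Benjamini-Hochberg adjusted p = 0.913 from the edgeR quasi-likelihood test). Its direction turned with the deposited transcript lengths, with means of 5.79 TPM in LP-NT and 6.05 TPM in SP-NT.

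**Figure D4:**
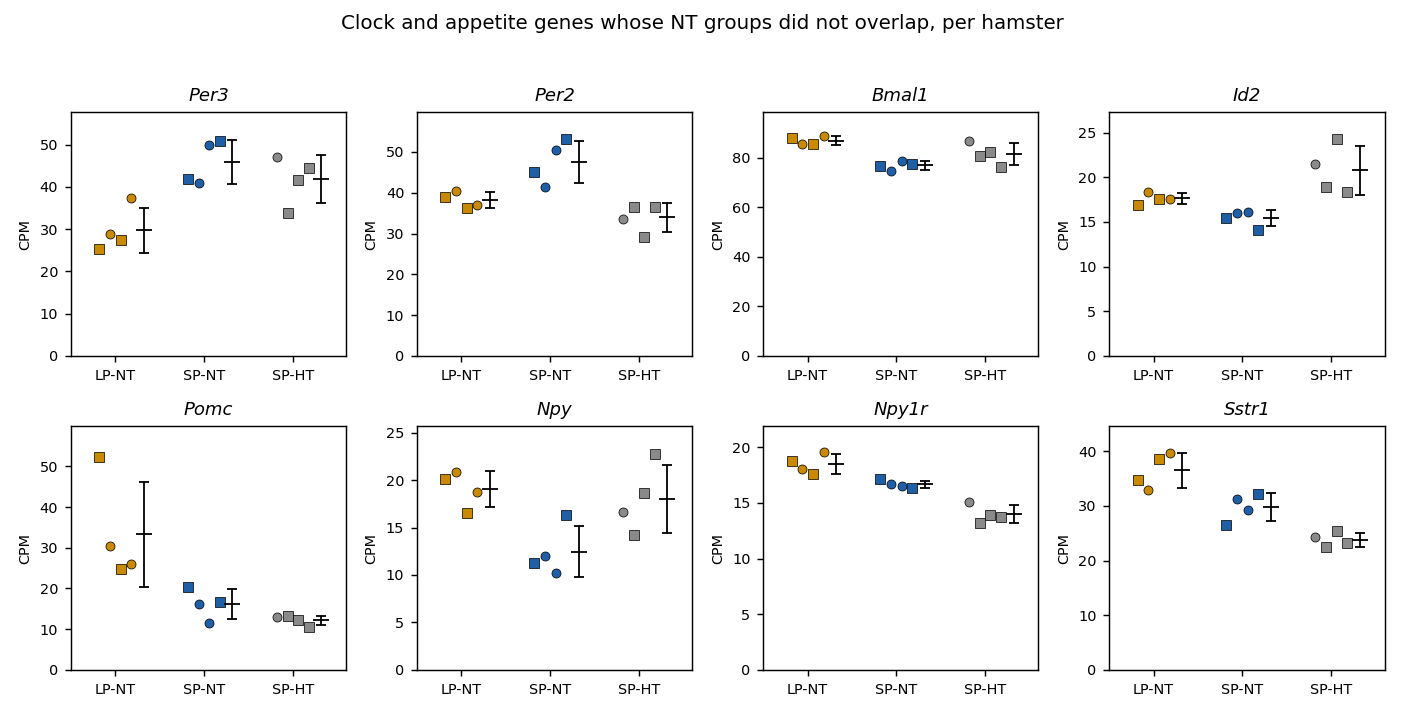
CPM of 8 genes in each hamster, with circles for females and squares for males as labelled, and bars for the mean and SD of 4 hamsters. LP-NT and SP-NT do not overlap in any panel, and Per3 and Per2 are higher in SP-NT while the other 6 are lower.

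The lists of the other systems are small, and no difference between systems was tested. Of 11 thyroid genes only Dio3 had groups apart (9.09%, beside 3.44% over all records). Of 6 named genes of the growth axis only the somatostatin receptor Sstr1 did (16.7%, beside the same 3.44%). Sstr1 had 34.8, 32.9, 38.6 and 39.7 CPM in LP-NT and 26.6, 31.3, 29.2 and 32.2 CPM in SP-NT (log2(FC) -0.29, Benjamini-Hochberg adjusted p = 0.913 from the edgeR quasi-likelihood test). Its SP-NT values ended just below the lowest LP-NT value, in LP-NT 02. Of the 7 genes that the study lists under transcription, 6 carry a name here. None of these 6 had groups apart (0%, beside 3.44% over all records), and edgeR passed 0 of them (0 at an unadjusted p under 0.05, and 0 in DESeq2). Fos, an immediate early gene of neuronal activity, had 26.9, 8.90, 5.55 and 2.69 CPM in LP-NT and 7.02, 5.66, 4.75 and 4.52 CPM in SP-NT. The log2(FC) of -1.01 (Benjamini-Hochberg adjusted p = 0.913 from the edgeR quasi-likelihood test) rested on LP-NT 01, without which it was -0.06.

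The records Cspg4b and Cdc26, named by the study among its most extreme genes, had groups that overlapped. Cspg4b, a chondroitin sulfate proteoglycan, had 0.317, 0.260, 0.319 and 0.411 CPM in LP-NT and 0.287, 0.583, 0.518 and 0.767 CPM in SP-NT (log2(FC) 0.71, Benjamini-Hochberg adjusted p = 0.913 from the edgeR quasi-likelihood test). Cdc26, a subunit of the anaphase-promoting complex, had 0.996, 1.69, 1.96 and 1.74 and 1.44, 1.33, 2.16 and 1.73 CPM (log2(FC) 0.06, Benjamini-Hochberg adjusted p = 0.974 from the edgeR quasi-likelihood test). The values of both were low and mixed between the groups. They passed the threshold only in DESeq2 with the deposited effective lengths, at log2(FC) of 4.06 and -2.43 (Benjamini-Hochberg adjusted p between 0.0103 and 0.994 for Cspg4b over 9 settings and between 0.00171 and 0.998 for Cdc26 over 10). Their names were matched through the values of that setting, so that passing in it was fixed by the match. Effective lengths of Cspg4b in SP-NT 19, 36, 37 and 38 were 3558, 313, 108 and 3555 bases, with a mean of 3570 bases in LP-NT. Cdc26 averaged 572 bases in LP-NT and 2558 bases in SP-NT.

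To look beyond named genes, 39 of 1457 Reactome pathways were taken by their titles, for hormones, receptors, synapses, metabolism, RNA and protein, cells and matrix. They cover 2001 tested records, of which edgeR passed 3, beside 6 of all 16199 records (0.0370%). The groups of 83 of the 2001 (4.15%, beside 3.44% over all records) were apart, 33 higher and 50 lower. Pathways share members and are not independent of each other. Medians of the log2(FC) over their members ran from -0.121 to 0.0717, with 13 above and 26 below 0. A record passed edgeR in 3 pathways, namely peptide hormone metabolism (Cga), retinoid metabolism and transport (Lrat) and nicotinic acetylcholine receptors (GeneID 110834), and DESeq2 in 9.

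The lowest medians belonged to translation elongation (-0.121, 80 of 101 members lower), respiratory electron transport (-0.106, 64 of 75 lower) and mitochondrial translation initiation (-0.0857, 61 of 78 lower), besides the small nicotinic list. They depended strongly on LP-NT 01. Summed over the members of translation elongation, LP-NT had 38475, 32208, 30394 and 32309 TPM and SP-NT 32698, 30515, 30295 and 32422 TPM. LP-NT 01 stood above all others, and the groups overlapped. Without it the medians were -0.0120, -0.0192 and -0.0142, beside -0.00126 over all records. Without both LP-NT 01 and SP-NT 19 they were -0.0361 (70 of 100 members lower), -0.0221 (46 of 73 lower) and -0.0371 (48 of 77 lower). With all 8 libraries the groups of 2, 2 and 3 members were apart, or 1.98%, 2.67% and 3.85% (3.44% over all records). Without LP-NT 01 these were 6, 3 and 4 members (5.94%, 4.00% and 5.13%, beside 5.83%). Without SP-NT 19 they were 9, 4 and 9 members (8.91%, 5.33% and 11.5%, beside 6.19%), at medians of -0.141, -0.128 and -0.104. Without both libraries they were 14, 5 and 10 members (13.9%, 6.67% and 12.8%, beside 9.27%). Glycolysis (-0.0561), the citric acid cycle (-0.0531) and the detoxification of reactive oxygen species (-0.0476) shifted likewise, to -0.0129, -0.0140 and 0.0213 without LP-NT 01, and 0 of their members passed edgeR or DESeq2 (1 at an unadjusted p under 0.05 in each).

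Of the 22 members of cholesterol biosynthesis, 17 were higher in SP-NT, with a median log2(FC) of 0.0352, which lay between 0.0198 and 0.0884 with each library left out. Their summed level was 1759, 1608, 1683 and 1731 TPM in LP-NT and 1838, 1784, 1786 and 1822 TPM in SP-NT, each SP-NT hamster above each LP-NT hamster. The torpid SP-HT hamsters had 1529.6, 1579.7, 1490.5 and 1601 TPM, all below the SP-NT and also below the LP-NT values. The pathway of gene regulation by SREBP, the factor that drives these genes, summed to 2480.0, 2584, 2598 and 2577 TPM in LP-NT and 2656, 2657, 2681 and 2707 TPM in SP-NT, again without overlap. Its median of 0.0133 turned to -0.00441 without SP-NT 36. These sums are in TPM, the scale on which more records were higher than lower among those apart (344 against 214). The differences were small, and the groups of 1 of 22 and 2 of 37 members were apart (4.55% and 5.41%, beside 3.44% over all records). Without LP-NT 01 these were 3 and 6 members (13.6% and 16.2%, beside 5.83%), and without SP-NT 19 they were 1 and 3 (4.55% and 8.11%, beside 6.19%). All 22 members of cholesterol biosynthesis were higher in SP-NT without LP-NT 01, with a median of 0.0884. Without SP-NT 19, 16 of these members were higher, with a median of 0.0489. With all libraries the edgeR test passed 0 of them (3 at an unadjusted p under 0.05, and 0 in DESeq2).

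Peptide hormone metabolism was the 1 pathway whose summed level was lower without overlap, at 3669, 3380.1, 3469 and 3494 TPM in LP-NT and 3259, 3329, 3314 and 3166 TPM in SP-NT. This rested on Cga, since without it the sums of the groups overlapped (3384 ± 79.7 TPM in LP-NT and 3262 ± 76.2 TPM in SP-NT; SD, n = 4 each). The other hormone pathways had medians of -0.0189 for amine-derived hormones, -0.0460 for steroid hormones and vitamin D, -0.0219 for leptin and -0.0192 for insulin receptor signaling. Growth hormone and prolactin receptor signaling had medians of -0.0412 and -0.0132, and nuclear receptors -0.0622. Single libraries moved several of these. Nuclear receptors were at -0.00873 and steroid hormones and vitamin D at 0.00464 without LP-NT 01, and with each library left out amine-derived hormones ranged from -0.131 to 0.184, growth hormone from -0.0552 to -0.0131, prolactin from -0.0624 to -0.00422, leptin from -0.0342 to -0.00728 and insulin from -0.0361 to -0.0169. With all 8 libraries, the groups of at most 1 member were apart in each of these lists except insulin receptor signaling, with 2 of 102 (1.96%, beside 3.44% over all records). Nuclear receptors had 4 of 45 apart without LP-NT 01 (8.89%, beside 5.83%). They had 3 without SP-NT 19 (6.67%, beside 6.19%) and 6 without both (13.3%, beside 9.27%). Without SP-NT 19, insulin receptor signaling had 4 (3.92%) and amine-derived hormones had 2 of 13 (15.4%), beside 6.19%.

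Of 137 peptide ligands and receptors, the groups of 11 (8.03%, beside 3.44% over all records) were apart, and all 11 were lower in SP-NT, with log2(FC) between -2.24 and -0.15. They include Pomc, Npy, Npy1r and Sstr1, a vasopressin-like receptor list member (-0.41, with means of 152 CPM in LP-NT and 115 CPM in SP-NT) and a tachykinin list member (-0.24). The largest changes, -2.24 and -1.34, came from records with few counts. Their means were 0.461 and 0.739 CPM in LP-NT and 0.0924 and 0.288 CPM in SP-NT, and Pomc followed at -1.05. The median over the pathway was -0.0358, from -0.0904 without SP-NT 38 to -0.0118 without SP-NT 37, and without LP-NT 01 and SP-NT 19 the groups of 18 were apart (13.1%, beside 9.27% over all records). Amine receptors had 5 of 34 groups apart (14.7%, beside the same 3.44%). Reactome lists 1 of the 4 lower ones under alpha-2 adrenergic signaling and 3 under serotonin receptors, with log2(FC) between -0.30 and -0.13, and the higher one under dopamine receptors. Receptors of orexin, NPFF and QRFP peptides had 0 of 8. In none of these 3 pathways did a record pass edgeR, which gave an unadjusted p under 0.05 to 22, 3 and 2 members, and DESeq2 passed 2 members of the first, Pomc and Npy.

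For GABA A receptors, NMDA receptor activation and AMPA receptor activation, the groups of 0 of 13, 0 of 17 and 0 of 15 members were apart, in small lists and beside 3.44% over all records. Their medians of 0.0133, 0.0254 and -0.0315 were -0.0332, -0.00588 and -0.00249 without LP-NT 01. The same count was 2 of 90 for potassium channels, 1 of 25 for TRP channels and 8 of 272 for axon guidance (2.22%, 4.00% and 2.94%), near the share over all records. Nicotinic receptors differed by their 2 higher records, while the median of the 11 members was -0.108 and changed sign without any 1 of 3 libraries, for example to 0.0492 without LP-NT 02.

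In the heat stress response, the groups of 9 of 70 members were apart (12.9%, beside 3.44% over all records), with 6 lower and 3 higher in SP-NT, and 0 passed edgeR or DESeq2 (9 at an unadjusted p under 0.05). The 6 lower ones include abundant records, among them 1 with a mean of 2056 CPM in LP-NT and 1774 CPM in SP-NT, and their log2(FC) lay between -0.38 and -0.21. Summed over the pathway, LP-NT had 12867, 11182, 12046 and 11312 TPM and SP-NT 10896, 11037, 11183 and 10938 TPM, which overlapped by the nearly equal LP-NT 02 and SP-NT 37. The median over all 70 members was 0.00276 and lay on either side of 0, from -0.0101 to 0.0120, with each library left out. Without LP-NT 01, 9 of these members were apart (12.9%, beside 5.83% over all records). The count was 14 without SP-NT 19 (20%, beside 6.19%) and 14 without both (20%, beside 9.27%). Splicing had 6 of 115 groups apart (5.22%), 14 without LP-NT 01 (12.2%, beside 5.83% over all records) and 19 without LP-NT 01 and SP-NT 19 (16.5%, beside 9.27%). Its median of -0.0175 was -0.000730 without LP-NT 01, and edgeR passed 0 members (5 at an unadjusted p under 0.05, and 0 in DESeq2).

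Collagen formation had the highest median, 0.0717, with 46 of 67 members higher and 4 apart (5.97%, beside 3.44% over all records), all higher in SP-NT. Their summed level was 1141, 1465, 1423 and 1444 TPM in LP-NT and 1413, 1471, 1521 and 1542 TPM in SP-NT, where SP-NT 19 lay below LP-NT 02, 03 and 05, so that the groups overlapped. LP-NT 01 was the lowest of all, and without it the median was 0.0275, while it was 0.150 without LP-NT 05. VEGF signaling had 4 of 96 groups apart, the mitotic cell cycle 16 of 379, NOTCH signaling 0 of 69, interferon signaling 1 of 98, class I antigen presentation 1 of 29 and DNA methylation 0 of 9. These shares lay between 0% and 4.22%, around that over all records, and the medians between -0.0307 and 0.0470. With each library left out, the median of DNA methylation ranged from -0.0657 to 0.0985, and those of interferon signaling, class I antigen presentation and the mitotic cell cycle also lay on either side of 0.

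The clock and retinoid pathways repeat part of the named genes. Reactome's circadian clock had 3 of 28 groups apart (10.7%, beside 3.44% over all records), with Per2 and 1 unnamed record higher and Bmal1 lower in SP-NT, and a median of 0.0178 (0.00287 to 0.0412 with each library left out). Reactome's list for gene activation by BMAL1:CLOCK, a subset that holds Bmal1 itself besides Per and Cry genes, had a median of 0.0667 (0.0463 to 0.108). Retinoid metabolism and transport had 3 of 33 apart (9.09%), all lower and Lrat by far the lowest. Its median of -0.0588 was -0.0145 without LP-NT 01 and turned to 0.0374 without LP-NT 01 and SP-NT 19. Signaling by retinoic acid had a median of 0.0129, between -0.0257 and 0.0251 with each library left out, with 1 of 40 apart.

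**Figure D5:**
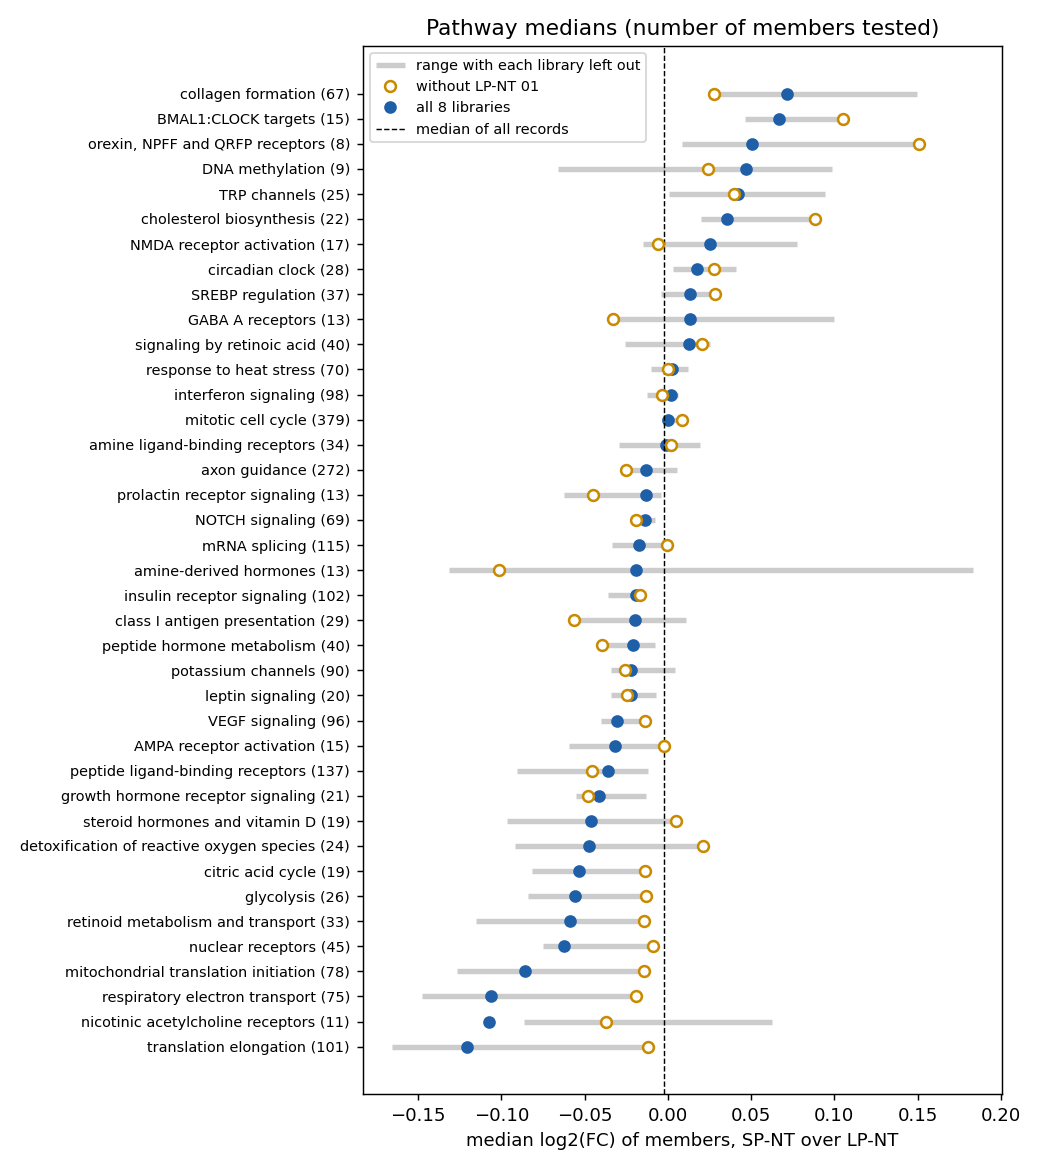
Median log2(FC) of SP-NT over LP-NT over the tested members of each of 39 pathways (number in parentheses), with all 8 libraries (blue), without LP-NT 01 (open) and as the range with each library left out (grey). The lowest medians, such as -0.121 for translation elongation, lie near 0 without LP-NT 01, and 23 medians keep their side of 0 with each library left out.

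Differences in the transcripts used were also looked for, through the effective length, an average in bases over the transcripts of a record weighted by their abundance. Among 12318 records that join several transcripts and average 50 counts or more, limma's moderated test with Benjamini-Hochberg adjustment passed 0 (0%), with 572 at an unadjusted p under 0.05 and a smallest adjusted p of 0.528. No other tool was run on this measure. The median size of the log2 ratio was 0.0223. Cspg4b and Cdc26, whose effective lengths are given above, average fewer than 50 counts and were not in this test. Without LP-NT 03 the count was 2, both longer in SP-NT, and it was 0 without any 1 of the 7 other libraries.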

How the data were processed

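Hypothalamic RNA of 12 hamsters was sequenced, and 8 libraries were compared here. The authors trimmed the reads (Trim Galore 0.6.6, FastQC 0.11.9), assembled them de novo, grouped transcripts by the mouse GeneID of their best protein match (GRCm39) and quantified each sample with Bowtie 1.3.0 and RSEM 1.3.1. The deposited expected counts are estimated read numbers per GeneID without normalization. The deposited TPM values are levels per effective length, scaled to the same sum in each sample. The effective length in bases, deposited beside them, is an estimate that depends on the transcripts found in each sample. Each file holds 17191 GeneIDs, and the totals per sample are given with the results.

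Expected counts were rounded, records with a sum of at least 10 over the samples compared went into edgeR 4.0.16 under R 4.3.3 (quasi-likelihood test, TMM normalization, Benjamini-Hochberg adjustment over all records, threshold 0.05), and CPM use TMM factors over 12 samples. Groups do not overlap where all 4 values of 1 group lie above all 4 of the other. DESeq2 1.42.0 and limma 3.58.1 served as alternatives, and library totals were compared by an exact permutation test. The tests were also tried on simulated data, of which no outcome is used here.

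The files pair no names with GeneIDs. Names were matched through the log2(FC) (within 0.0051, or 0.051 where 1 decimal is printed) and adjusted p (within 0.0006) that the study prints, in DESeq2 with effective lengths. Named in the text are records passed by edgeR or DESeq2, the 30 with the smallest p, the 20 with the largest change among those not overlapping at a mean of 1 CPM or more in 1 group, and examples of each list, as far as they carry a name, besides 2 unnamed records in each direction. The examples and the 39 pathways, from the Reactome table of a Bioconductor package, were picked after the main results had been seen, the pathways before their own values were. No other pathway set was tried. Leaving libraries out of the pathway medians and Cga out of a sum was added after the data had been seen. The pathways were used because lists of gene symbols, cell type markers included, could not be applied as a whole. Members and lists were chosen with earlier results of these data known.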

Additional observations from a re-analysis of the deposited data

Results flagged for a closer look

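In 78 groups of 4 values, those of the genes with values in the text and of the library totals, 4 held a hamster far from the 3 others, where chance gives about 1 in 20 groups. Lrat was at 1.88 CPM in SP-HT 26, against 0.916 to 1.03 CPM in the other hamsters in torpor. Dio3 was at 0.0453 CPM in LP-NT 01, which is 1 count, against 0 in its group mates. Glut5 was at 2.95 CPM in SP-NT 38, against 3.54 to 3.65 CPM in the other SP-NT hamsters. The record with GeneID 110834 was at 22.1 CPM in SP-NT 19, against 24.2 to 24.4 CPM in the rest of its group, and remained above every LP-NT hamster.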

How the results depend on the processing

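The number of records passed between SP-NT and LP-NT was 6 by edgeR, 33 by default DESeq2 and 32 when DESeq2 also took the effective lengths, an alternative added once the data had been seen. With all libraries kept, 8 further choices of tool, filter, scaling and covariate gave 6 to 8, and leaving out each library in turn gave 5 to 8. For SP-HT against LP-NT, 221 records became 706 in DESeq2 and between 55 and 200 with 1 library left out, where fewer samples enter the fit. Effective length passed 0 to 2 records with 1 library left out. The difference between the mean library totals lay between 1425591 and 1867861 counts with 1 library left out, and its exact p was 0.0571 without any 1 LP-NT library and 0.0286 without any 1 SP-NT library. The totals of the groups did not overlap in any of these smaller sets, which allow fewer splits.

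Of the log2(FC) under other settings of the genes with values in the text, 445 kept their direction and their side of the threshold, 18 passed it additionally, 2 no longer did and 8 turned. Those that turned belong to Glut5, with a log2(FC) of 0.0358 with a length offset in edgeR and 0.0365 in DESeq2 with the lengths, and to Cdc26, with -2.41 and -2.43 in these settings, -0.10 in limma, -0.0444 without LP-NT 01 and SP-NT 19, a pair left out after seeing the data, and between -0.11 and 0.17 with 1 library left out. The length settings enter the deposited lengths themselves, and for the rest the cause was not tested. Pathway medians kept their side of 0 for 23 of 39 pathways with each library left out. No paired analysis was possible because SP-NT and LP-NT share no replicate number. Counts near 1 per library, as for Dio3 in LP-NT, limit what can be said of records at such levels.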
